A study of Mus musculus with 6 samples.

Results

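The genes described here are 9 transcription factors known for driving the epithelial-mesenchymal transition (EMT), Twist1, Twist2, Snai1, Snai2, Snai3, Zeb1, Zeb2, Prrx1 and Foxc2, and Vim, which encodes the intermediate filament protein vimentin. They were chosen by symbol, and 9 of the 10 are among the 19179 genes listed in the files. Snai2 was not listed and counts as not detected. Of the 9, 5 (Twist1, Snai1, Snai3, Foxc2 and Vim) reached 1 RPKM in at least 3 libraries and were tested, and 4 (Twist2, Zeb1, Zeb2 and Prrx1) did not. RPKM are reads per kilobase of gene length, scaled by the authors to their own total for each library. The samples were clones of 4T1, a mammary carcinoma line from BALB/C mice, each grown for 14 days from a well seeded with 1 cell. The 3 stem-labelled libraries carry the tissue label breast cancer stem cell, and the 3 other libraries carry the label breast cancer cell. The labels call the kinds SC and NSC, without the meaning of the letters or how a clone was assigned. They give 10 clones of each kind, collected at random, and 3 independent experiments, but neither the number of clones in a library nor which libraries share an experiment. Where libraries of a group share a culture, the p-values measure only the spread between libraries.

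In EMT, epithelial cells loosen their junctions and take on features of migrating mesenchymal cells, as in gastrulation, neural crest formation and carcinoma invasion. The SNAI factors are zinc finger proteins and the ZEB factors zinc finger and homeodomain proteins, and both bind E-boxes in epithelial genes such as Cdh1, the E-cadherin gene, and recruit corepressors. The TWIST factors are basic helix-loop-helix (bHLH) proteins that bind E-boxes as dimers with E proteins, PRRX1 is a homeodomain protein and FOXC2 a forkhead protein of mesenchyme and lymphatic vessels. Vimentin replaces keratin filaments as the main intermediate filament of mesenchymal cells and is widely used as a marker of the transition.

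Twist1 and Foxc2 rose in the stem-labelled clones by about 1.6 on the log2 scale, while Snai3 fell from a mean of 4.90 to 0.0559 RPKM. Snai1 and Vim did not pass the test on the deposited scale, and the direction of Snai1 turned after rescaling and after removal of the trends with length and GC content (the length and GC correction), and that of Vim after this correction. The ZEB factors, Twist2 and Prrx1 stayed below 1 RPKM in every library. The most abundant of the 9 factors was Twist1 in the stem-labelled libraries and Snai1 in the others.

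Each stem-labelled library held 21196572 to 22838870 reads in genes and each other library 15357608 to 16830762, which was 0.658 to 0.757 and 1.23 to 1.53 of the authors' library total. Changes are given ± SE as the limma difference of log2(RPKM + 1), with the other clones subtracted from the stem-labelled ones, and understate the change of weakly expressed genes. The median change of all 10097 tested genes was 0.11 on the deposited scale and 0.86 after rescaling to the reads summed over genes, so each change is best read against that median. Of the tested genes 55.2% were called at a Benjamini-Hochberg adjusted p under 0.05, 29.9% higher and 25.4% lower. After rescaling it was 71.0% (58.7% higher and 12.3% lower), and after upper-quartile scaling, where the median was 0.32, 59.6% (38.6% higher and 21.1% lower). Of the 5 tested members 3 (Twist1, Foxc2 and Snai3) were called on the deposited scale, and Snai3 passed the filter only through the other libraries. Summed markers of mammary carcinoma epithelium reached 935 to 1457 RPKM in stem-labelled libraries against 2137 to 3817 RPKM, with 1 of 7 tested markers (Cdh1) higher and 4 lower. Most of these sums is Krt8 and Krt18. Some of the calls depend on the scale. After rescaling Epcam was called higher (0.90, limma adjusted p = 0.00575) and Krt8 stood at 0.04. Krt18 and Cldn3 were still called lower after rescaling (-0.85 and -1.31, limma adjusted p = 0.0463 and 0.00487). After the correction these 2 genes no longer passed (limma adjusted p = 0.0677 and 0.0833). The part of these markers in the results below was not tested. Markers of other cells were scarce. The 9 fibroblast markers summed to 1.68 to 3.39 RPKM and 0.414 to 1.01 RPKM, nearly all of it Pdgfra, with 4 not listed and Col1a2 and Dcn at 0 in the other libraries. The 6 leukocyte markers summed to 12.6 to 40.2 RPKM and 6.09 to 29.5 RPKM, nearly all of it Cd68, with Adgre1 not listed, Itgam and Csf1r at 0 in the other libraries, and Ptprc on 2 reads against 3. Endothelial and smooth muscle markers stayed at or below 0.167 RPKM in sum.

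**Figure D1:**
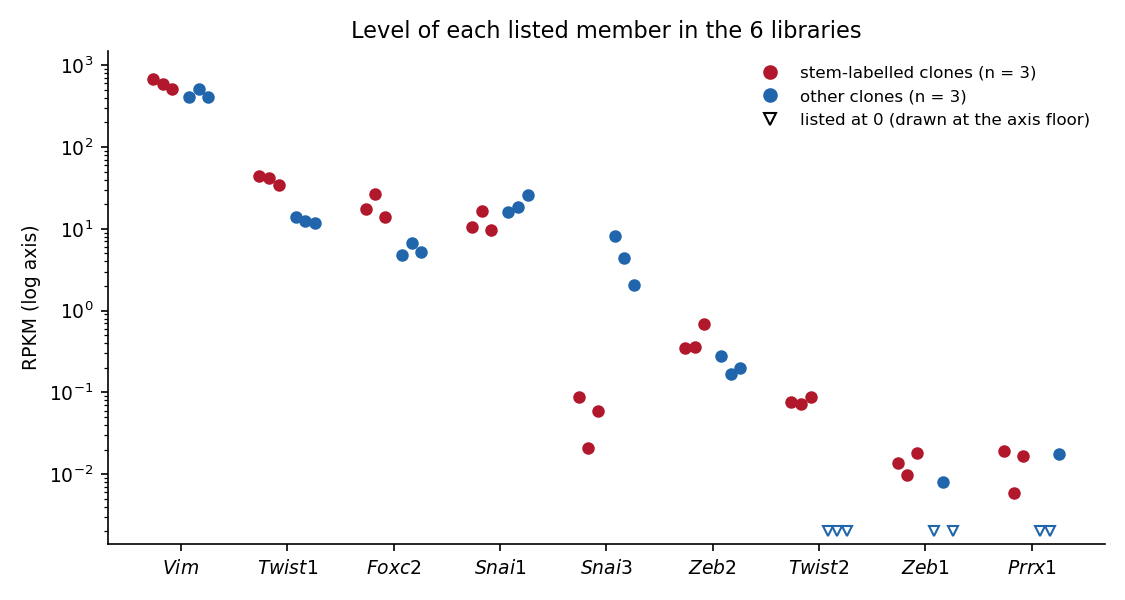
Level of the 9 listed genes in RPKM on a log axis, 1 point per library, red for the 3 stem-labelled and blue for the 3 other libraries, with open triangles at the axis floor for libraries listed at 0. Twist1 and Foxc2 lie higher in all 3 stem-labelled libraries, Snai3 lies lower in them, and Twist2 is at 0 in all 3 other libraries.

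Twist1 (ENSMUSG00000035799, chromosome 12, 33957671 to 33959817, GRCm38) stood at 43.6, 41.7 and 34.5 RPKM in stem-labelled replicates 1, 2 and 3. It stood at 14.1, 12.4 and 11.9 RPKM in the same replicates of the other clones. The groups did not overlap, which was so for 63.5% of tested genes (35.7% with the stem-labelled libraries higher, 27.8% lower, and 61.0% higher after rescaling), on 1795 to 2042 reads and 193 to 271 reads per library. The change was 1.57 ± 0.20 (limma adjusted p = 0.000328). In bulk RNA a larger share of cells with the transcript and more transcript per cell cannot be told apart. Rescaled to summed reads, Twist1 changed by 2.46 ± 0.23, which is 1.60 above the median of all genes, against 1.45 above it on the deposited scale. Twist1 was called higher under all 17 alternative settings, by up to 2.79, with adjusted p from 7.77e-06 to 0.00278.

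Twist2, the close relative of Twist1 that acts in dermis and bone, was present only as traces. It had 7, 7 and 9 reads in the stem-labelled libraries (0.0727 to 0.0881 RPKM) and 0 in each of the others. For comparison the other group was given a floor of 3 reads. Against it the stem-labelled level was 2.90-fold higher on the authors' totals and 5.56-fold higher per read in genes. These folds are not lower bounds, since the 23 stem-labelled reads were taken at face value. Their 95% counting interval is 14.6 to 34.5 reads, and the spread between libraries is not covered. With no filter on low values the change was 0.11 ± 0.02 (limma adjusted p = 0.0141), where 28.1% of 19179 genes were called. Of the 3174 exonic bases of Twist2, 1477 overlap Gm29100, an antisense gene, and the strand of counting is not stated, so reads of the pair cannot be told apart.

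Snai1 (ENSMUSG00000042821, chromosome 2, 167538195 to 167542814, GRCm38), the founding SNAI factor, stood at 10.6, 16.7 and 9.66 RPKM in the stem-labelled libraries. It stood at 16.1, 18.5 and 25.9 RPKM in the other libraries. Replicate 2 of the stem-labelled clones lay above replicate 1 of the others, so the groups overlapped, and the change of -0.68 ± 0.27 (95% interval -1.28 to -0.08) missed the threshold (limma adjusted p = 0.0539). Without stem-labelled replicate 2 the change was -0.91 and adjusted p = 0.0281, and without replicate 1 of the others -0.82 and adjusted p = 0.0450. It was also called lower when testing was limited to genes averaging 5 RPKM or more (limma adjusted p = 0.0413) and by limma-voom on the recovered reads (-0.86, adjusted p = 0.0307), which called 54.0% of genes (25.7% higher and 28.3% lower). Rescaled to summed reads it changed by 0.20 ± 0.26 and after the correction for length and GC content by 0.57 ± 0.24, neither past the threshold (adjusted p = 0.504 and 0.0811). Over the 17 alternative settings the adjusted p ran from 0.0281 to 0.504.

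Snai3 (ENSMUSG00000006587, chromosome 8, 122454206 to 122460692, GRCm38), the least studied SNAI factor, had 4, 1 and 3 reads in the stem-labelled libraries, or 0.0884, 0.0207 and 0.0586 RPKM. It had 156, 87 and 33 reads in the other libraries, or 8.24, 4.40 and 2.06 RPKM. The lowest of the other libraries was far above the highest stem-labelled library, although the other libraries spread widely among themselves. A lack of overlap in this direction held for 27.8% of tested genes, and for 12.6% after rescaling. Snai3 passed the filter only through the other libraries, so a difference was built into its being tested. The change was -2.34 ± 0.34 (limma adjusted p = 0.000529), and it stayed called lower under all 16 alternatives that tested it, from -6.33 with limma-voom to -1.10 after the length and GC correction (adjusted p from 6.82e-05 to 0.0345). All of these except the fit with no filter (limma adjusted p = 0.00908) used the same filter. Their p-values are therefore descriptions and not independent evidence of a difference. The pooled level was 91.2 times as high in the other clones on the authors' totals (95% counting interval 45.6 to 213), and 47.6 times as high per read in genes (23.8 to 111).

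The SNAI and TWIST factors with values to compare are nearly equal in length: Twist1 has 1616, Snai1 1621 and Snai3 1589 bases, and their longest transcripts hold 59.3%, 59.8% and 59.2% G and C. The upstream sequences of Twist1 and Snai1 are shown because Twist1 was the most abundant factor in one group and Snai1 in the other. They are the 250 bases before the transcription start in RefSeq on GRCm38.p6, plus strand, at chr12:33957421-33957670 and chr2:167537945-167538194. Capitals mark the E-box CAGGTG, bound by SNAI and ZEB factors, read on either strand (CACCTG on the other strand), and the E-box CATATG, bound by TWIST dimers.
Twist1: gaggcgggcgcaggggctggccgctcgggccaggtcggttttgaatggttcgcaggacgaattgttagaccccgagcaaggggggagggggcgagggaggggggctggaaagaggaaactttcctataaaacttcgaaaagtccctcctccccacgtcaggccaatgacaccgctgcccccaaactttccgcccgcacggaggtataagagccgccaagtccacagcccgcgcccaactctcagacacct
Snai1: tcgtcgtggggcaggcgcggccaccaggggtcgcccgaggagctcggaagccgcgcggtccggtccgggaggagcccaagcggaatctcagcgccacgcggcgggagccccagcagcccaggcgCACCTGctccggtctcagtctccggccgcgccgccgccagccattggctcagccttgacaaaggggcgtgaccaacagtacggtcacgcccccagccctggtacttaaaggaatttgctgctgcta
Snai1 held 1 match of CAGGTG, starting 126 bases before the transcription start, and Twist1 held none of either E-box. Of 32851 promoters in the table, 17.2% held CAGGTG and 3.46% held CATATG in the same window. The table has promoters for 6 of the 10 genes, and none of the other 4 (Twist2, Zeb2, Prrx1 and Vim) held either E-box there.

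Foxc2 (ENSMUSG00000046714, chromosome 8, 121116171 to 121118895, GRCm38) stood at 17.3, 26.5 and 13.9 RPKM in the stem-labelled libraries. It stood at 4.80, 6.63 and 5.25 RPKM in the other libraries. Each stem-labelled library was well above each of the others, and replicate 2 was the highest in both groups. Such a lack of overlap in this direction held for 35.7% of tested genes, and for 61.0% after rescaling. The change was 1.59 ± 0.26 (limma adjusted p = 0.000905), or 2.42 ± 0.27 rescaled to summed reads, which is 1.56 above the median of all genes against 1.47 on the deposited scale. Foxc2 was called higher under all 17 alternatives, by 1.34 to 2.42, with adjusted p from 1.70e-05 to 0.00764.

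The ZEB factors were rare. Zeb2, with a deposited length of 19942 bases, stood at 0.350, 0.360 and 0.677 RPKM in the stem-labelled libraries (199, 218 and 435 reads) and at 0.282, 0.169 and 0.199 RPKM in the others (67, 42 and 40 reads). The groups did not overlap, which was so for 26.7% of all listed genes in this direction. Of its 19942 exonic bases 653 overlap Zeb2os on the opposite strand. With no filter the change was 0.26 ± 0.10 and missed the threshold (limma adjusted p = 0.118). An exact permutation test of 3 libraries against 3 cannot give a two-sided p below 0.1, and gave 0.1 here. Zeb1 had 4, 3 and 6 reads against 0, 1 and 0, a ratio of 4.92 on the authors' totals with a counting interval of 0.739 to 209. This interval includes 1, so a difference in Zeb1 was not established on the deposited scale, although its groups did not overlap on these few reads. Per read in genes the ratio was 9.43 (1.42 to 401), on a scale where the median log2 change of all tested genes was 0.86.

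Prrx1, known for opposing roles of its isoforms in invasion and colonisation, had 6, 2 and 6 reads in the stem-labelled libraries and 0, 0 and 2 in the others. The ratio was 2.65 (0.608 to 24.0) on the authors' totals and 5.08 (1.17 to 46.0) per read in genes, where the same median of 0.86 applies. With no filter neither Zeb1 nor Prrx1 passed, with changes of 0.02 and 0.01 (limma adjusted p = 0.559 and 0.701).

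Vim (ENSMUSG00000026728, chromosome 2, 13573927 to 13582826, GRCm38) was the most abundant of the 10 genes in every library, above 99.7% of the listed genes in stem-labelled clones and 98.7% in the others. It stood at 680, 581 and 516 RPKM in the stem-labelled libraries. In the other libraries it stood at 403, 513 and 406 RPKM. The lowest stem-labelled library lay just above the highest of the others, which is no overlap but a narrow gap, and 35.7% of tested genes had no overlap in this direction. The change of 0.43 ± 0.29 (95% interval -0.22 to 1.07) did not pass (limma adjusted p = 0.233). It was called higher after upper-quartile scaling (0.69, adjusted p = 0.0373) and after rescaling to summed reads (1.37 ± 0.30, adjusted p = 0.00139), where the median of all genes was 0.32 and 0.86. After the length and GC correction it changed by -0.049 ± 0.24 (adjusted p = 0.882). Over the 17 alternatives the adjusted p ran from 0.00139 to 0.899.

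**Figure D2:**
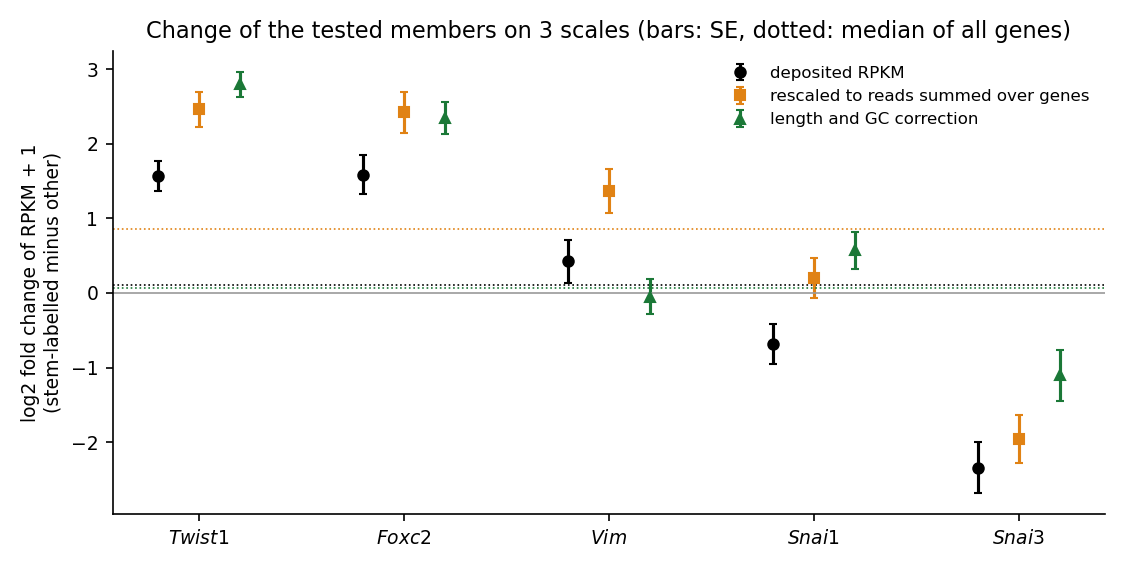
Log2 fold change of RPKM + 1 (stem-labelled minus other) of the 5 tested genes on the deposited scale (black), rescaled to summed reads (orange) and after the length and GC correction (green), with SE, and dotted lines for the median of all tested genes on each. Twist1 and Foxc2 stay above every line and Snai3 below, while Snai1 runs from -0.68 to 0.57 and Vim from -0.049 to 1.37.

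In the stem-labelled libraries the order of levels in RPKM was Vim, Twist1, Foxc2, Snai1, Zeb2, Twist2, Snai3, Zeb1 and Prrx1. Foxc2 and Snai1, Twist2 and Snai3, and Zeb1 and Prrx1 overlapped with each other across the libraries, and the other neighbours did not. In the other libraries the order was Vim, Snai1, Twist1, Foxc2, Snai3, Zeb2, Prrx1, Zeb1 and Twist2. There Foxc2 and Snai3 overlapped, as did the last 3 genes, which lay at 0 to 0.0179 RPKM.

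Ratios between genes within a library do not depend on the library total. Twist1 stood at 4.12, 2.50 and 3.57 times the level of Snai1 in the stem-labelled libraries and at 0.874, 0.668 and 0.458 times in the others. Twist1 thus exceeded Snai1 in every stem-labelled library and in no other library. The mean log2 ratio was 1.73 ± 0.37 and -0.63 ± 0.47 (SD, n = 3 libraries), a difference of 2.37, or 5.16-fold, which ran from 2.12 to 2.59 on leaving out any 1 library and was 2.22 after the length and GC correction. The ratio of Foxc2 to Snai1 parted the groups in the same way, at 1.63, 1.59 and 1.44 against 0.298, 0.358 and 0.203, a difference of 2.48 in log2 that was 1.78 after the correction. Corrected differences of ratios, here and below, come from log2(RPKM + 1), while the uncorrected ratios hold no added 1. The step from one to the other therefore does not show the correction alone.

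Twist1 and Foxc2 did not part from each other. Their ratio was 2.52, 1.57 and 2.47 in the stem-labelled libraries and 2.93, 1.87 and 2.26 in the others, a difference of -0.11 in log2 with ranges that overlap (exact permutation p = 0.7). It was 0.45 after the correction, and the 2 genes differ by 1109 bases in length. Against Vim, Twist1 stood at 0.0641, 0.0717 and 0.0668 in stem-labelled libraries and at 0.0349, 0.0242 and 0.0292 in the others. Foxc2 stood at 0.0254 to 0.0456 and 0.0119 to 0.0129 of Vim, and Snai1 at 0.0155 to 0.0287 and 0.0362 to 0.0638. The ratio of Snai1 to Vim, lower by -1.15 in log2, turned to 0.62 after the correction, and these genes differ by 3122 bases in length. Of the 6 ratios of these 4 genes, 5 had no overlap between groups, which is a description only: 63.5% of single genes had none on the deposited scale, and the share for ratios of other genes was not computed. Each of the 5 reached the smallest exact two-sided p that 3 libraries against 3 allow, 0.1, or 0.12 when adjusted over the 6 ratios. The ratios were chosen after the levels were seen.

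**Figure D3:**
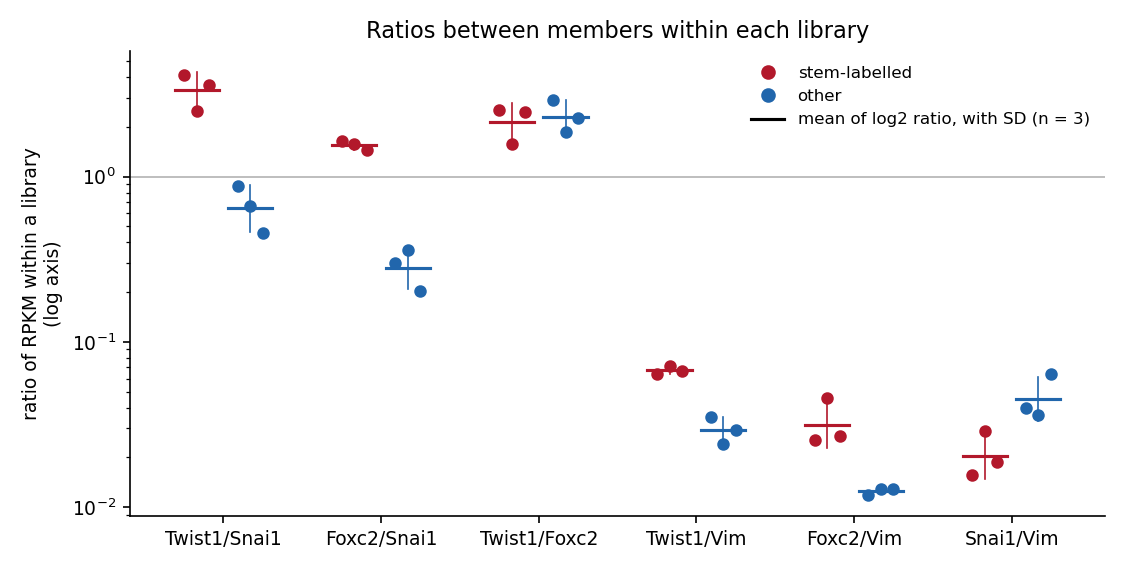
Ratio of RPKM within each library for the 6 pairs among Twist1, Snai1, Foxc2 and Vim, on a log axis, with red points for stem-labelled and blue for other libraries, and lines for the mean and SD of the log2 ratio (n = 3). Twist1 to Snai1 lies above 1 in all 3 stem-labelled libraries and below 1 in all 3 others, and Twist1 to Foxc2 overlaps.

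Across all tested genes the change rose with gene length: the decile of shortest genes had a median of -1.17, and that of the longest genes 0.72. Twist1, Snai1 and Snai3 lie in the decile of 1076 to 1789 bases, where the median change was -0.73, 7.23% of genes were called higher and 48.5% lower. The change of Snai1 was close to that median, while Twist1 lay above and Snai3 below it. Foxc2 lies in the decile of 2426 to 3010 bases (median -0.07, 21.4% called higher), and Vim in that of 4340 to 5197 bases (median 0.33, 37.2% called higher). Zeb1, Zeb2 and Prrx1, which were not tested, have lengths in the range of the longest decile. It spans 8323 to 38847 bases, with 59.6% of its genes called higher and 4.76% lower. The correction for length and GC content raised Twist1 to 2.79 ± 0.17 and Foxc2 to 2.35 ± 0.22, and left Snai3 at -1.10 ± 0.34 (limma adjusted p = 6.20e-05, 0.000148 and 0.0260). After the correction 47.8% of tested genes were called, 25.8% higher and 22.0% lower.

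**Figure D4:**
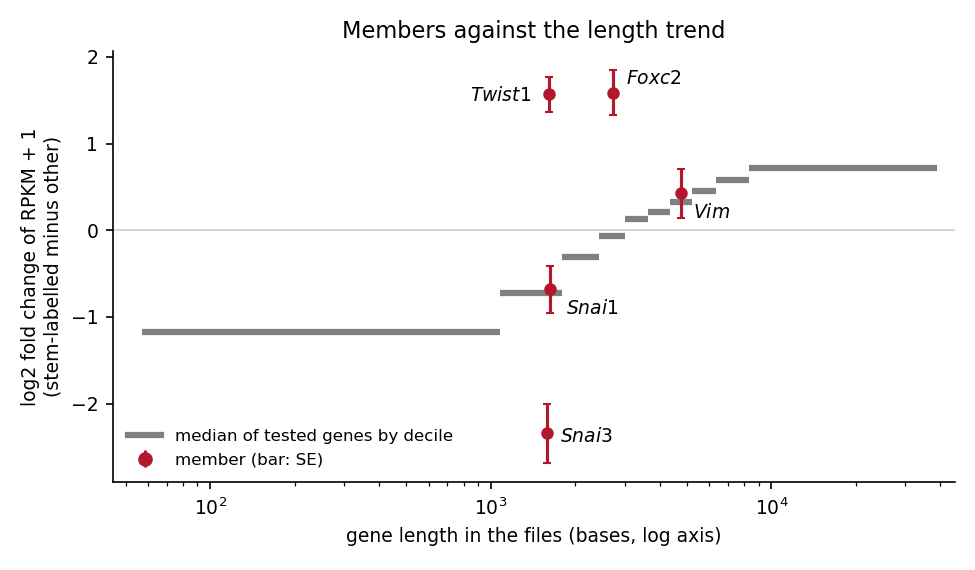
Log2 fold change of RPKM + 1 (stem-labelled minus other) against gene length in bases on a log axis, with grey bars for the median of all tested genes in each length decile and red points with SE for the 5 tested genes. Snai1 at -0.68 and Vim at 0.43 lie near the bars of their deciles, at -0.73 and 0.33, and Twist1, Foxc2 and Snai3 lie away from theirs.

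Genes that work with these factors were described in 8 lists. For each, the share of all tested genes called is the background: 29.9% higher and 25.4% lower on the deposited scale, 58.7% and 12.3% after rescaling, and 25.8% and 22.0% after the correction. Of 138 tested entries in the lists, 9 passed the filter through libraries of 1 group alone. All 9 are counted among the calls on the deposited scale, and a difference was built into their being tested. They number 2 each among bHLH partners, induced targets and intermediate filament genes. The lists of other EMT factors, corepressors and protein turnover hold 1 each. For other transcription factors that can drive EMT, 9 of 14 tested genes rose, 2 fell and 3 missed the threshold on the deposited scale. The median change was 0.69 against 0.11 for all genes. Foxc1, the paralog of Foxc2, rose from 1.73 ± 0.495 to 16.9 ± 4.32 RPKM (2.71 ± 0.24), and Sox4, a SOX factor induced by TGF-beta, from 2.30 ± 0.441 to 17.4 ± 5.47 RPKM (2.45 ± 0.25). Etv4, an ETS factor, changed by -1.58 ± 0.28 and Hmga1, an architectural chromatin protein, by -1.51 ± 0.34. Neither fall passed after rescaling, where 12 genes of the list rose and 0 fell. After the correction 4 rose and 1 fell, with a median of 0.05 against 0.07 for all genes, and the share that rose was near the 25.8% of all tested genes.

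Among bHLH partners and inhibitors of TWIST, 6 of 14 rose, 2 fell and 6 did not pass (median 0.53). Rescaled, 11 rose and 0 fell, and after the correction 6 rose and 0 fell. The acetyltransferase gene Ep300 rose by 1.29 ± 0.19. Ep300 and Tcf4, both counted among the genes that rose, passed the filter through the stem-labelled libraries alone. Neither was called after the correction (0.20 and 0.07). Id3 and Id1, which encode inhibitors that sequester E proteins, changed by -1.13 ± 0.23 and -0.70 ± 0.24, which did not pass after rescaling (-0.20 and 0.22) or the correction (-0.37 and 0.31). The count of genes that rose was 3 or 4 on leaving out any 1 library. It was 4 with the replicate number as a block and 3 with no filter. The count that fell was 1 without stem-labelled replicate 1 or 3 or without replicate 2 or 3 of the others, and with the replicate number as a block.

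Of 25 tested corepressors and chromatin partners of SNAI, ZEB and TWIST, 12 rose, 2 fell and 11 missed the threshold (median 0.49). Limd1, a LIM protein that bridges SNAI factors to a methyltransferase, rose from 3.22 ± 0.664 to 18.6 ± 1.65 RPKM (2.23 ± 0.20), and Chd4, the remodelling ATPase of the NuRD complex, by 1.70 ± 0.23. The methyltransferase gene Ehmt2 changed by -0.91 ± 0.25 and Eed, of the Polycomb repressive complex, by -0.72 ± 0.26, with 0.02 and 0.10 after rescaling, where 20 rose and 0 fell. After the correction 7 rose and 4 fell, and the share that rose was near the 25.8% of all tested genes. The count that fell was 1 without stem-labelled replicate 1 or 2 or without replicate 1 or 3 of the others.

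Of 24 tested genes for the turnover of SNAI and TWIST protein, 14 rose, 1 fell and 9 missed the threshold (median 0.58). Fbxl14, the F-box protein that targets SNAI1 and TWIST1 for degradation, rose from 5.21 ± 0.712 to 26.3 ± 6.26 RPKM (2.12 ± 0.23). Fbxw11, a beta-TrCP ubiquitin ligase subunit, rose by 1.56 ± 0.19. Cops2, a subunit of the COP9 signalosome, fell by 2.60 on the log2 scale, and 2 genes fell without replicate 2 of the other clones. Rescaled, 19 rose and 1 fell, and after the correction 6 rose and 3 fell (median 0.29). The share that rose after the correction was near the 25.8% of all tested genes.

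**Figure D5:**
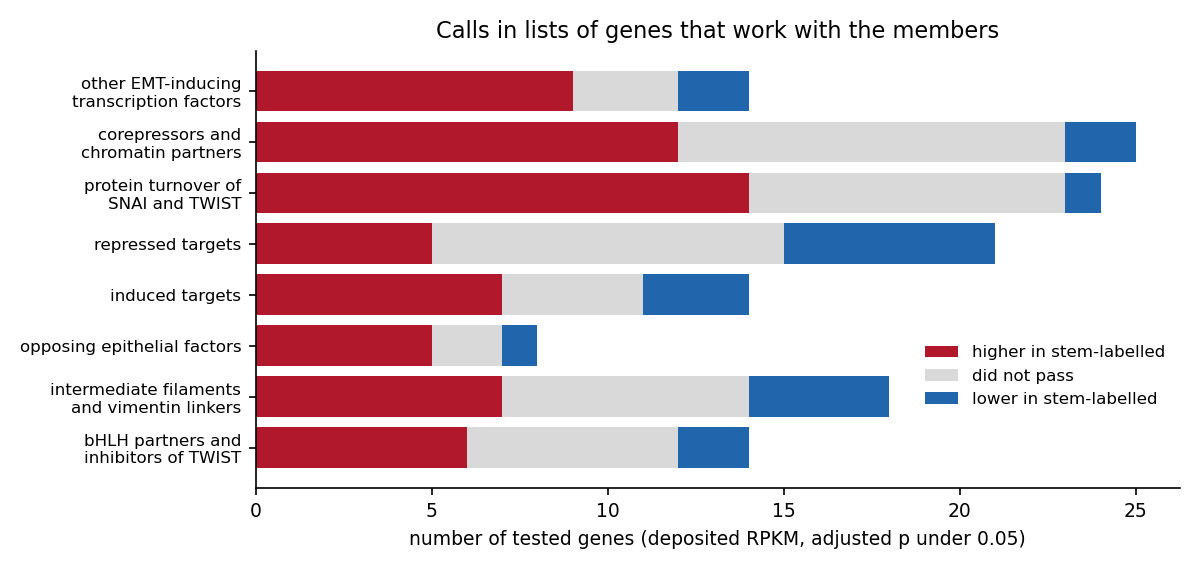
Number of tested genes in each of the 8 lists that were higher in the stem-labelled clones (red), did not pass (grey) or were lower (blue) on the deposited scale at an adjusted p under 0.05. Repressed targets have 5 higher and 6 lower of 21, and induced targets 7 higher and 3 lower of 14.

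Among genes known as repressed targets of the EMT factors, 5 of 21 tested genes rose, 6 fell and 10 missed the threshold, and the median change was -0.12. These shares are close to those of all tested genes (29.9% higher and 25.4% lower). Cdh1 rose by 2.04 ± 0.22, and Inadl, a Crumbs complex scaffold, by 0.74 ± 0.21. Inadl did not pass after the correction (-0.34). The claudin gene Cldn4 changed by -4.36 ± 0.35 and the polarity gene Llgl2 by -1.83 ± 0.27, from 36.2 ± 10.3 to 9.40 ± 2.65 RPKM. After rescaling 11 rose and 5 fell, and after the correction 2 rose and 6 fell. The count that rose was 2 without stem-labelled replicate 1 or 3 and 3 without replicate 1 or 3 of the other clones.

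The 14 tested genes known as induced targets split into 7 that rose, 3 that fell and 4 that did not pass (median 0.65). After rescaling 10 rose and 3 fell, and after the correction 6 rose and 3 fell. Mmp14, a membrane-bound collagenase, rose from 7.83 ± 3.14 to 43.3 ± 10.8 RPKM (2.35 ± 0.29), and the fibronectin gene Fn1 by 2.55 ± 0.33. Mmp9, the gelatinase B gene, fell from 20.6 ± 0.513 to 1.91 ± 0.709 RPKM (-2.92 ± 0.23), and this fall also passed after rescaling and after the correction (-2.16 and -2.90). Cdh2, the N-cadherin gene, was not listed.

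Of 8 tested epithelial factors that oppose EMT, 5 rose, 1 fell and 2 missed the threshold (median 0.99). Gata3, a luminal regulator, rose by 2.09 ± 0.22, and Klf5 from 11.9 ± 2.38 to 40.3 ± 5.89 RPKM (1.68 ± 0.23). Elf3, an epithelial ETS factor, changed by -1.06 ± 0.20, and by -0.20 after rescaling, where it did not pass. After rescaling 5 rose and 0 fell, and after the correction 3 rose and 1 fell. The rescaled share that rose was near the 58.7% of all tested genes.

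Of 18 tested intermediate filament genes and linkers or regulators of vimentin, 7 rose, 4 fell and 7 missed the threshold (median 0.39). The plakin genes Ppl and Plec, which encode linkers that anchor intermediate filaments, rose by 1.70 ± 0.28 and 1.27 ± 0.22. Nes, which encodes nestin, a filament protein that assembles with vimentin, changed by -1.02 ± 0.20, from 20.6 ± 2.71 to 9.61 ± 0.610 RPKM. After rescaling 11 rose and 1 fell, with Nes at -0.14 and not past the threshold, and after the correction 4 rose and 5 fell. The shares that rose were near those of all tested genes, 58.7% after rescaling and 25.8% after the correction.

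The genes whose pattern over the 6 libraries was most like that of Twist1, by Pearson r of log2(RPKM + 1) among 5949 genes with a mean of at least 5 RPKM, included Foxo4, Dbr1, Tusc3 and Spn, with r from 0.996 to 0.999. For Foxo4 the levels were 10.6, 11.0 and 8.57 RPKM against 3.49, 2.95 and 2.76 RPKM. Such values are common here: 973 genes (16.4%) had r of at least 0.9 with Twist1. For Vim the 5 genes were Nup107, Tbcd, Pola2, AI467606 and Fig4, with r from 0.985 to 0.991, and 276 genes (4.64%) had r of at least 0.9. The points share their library totals, so these values are descriptions only.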

How the data were processed

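The authors deposited RPKM for 19179 genes in 1 file per library, 6 in all, with a gene length and coordinates. Per the submitters' processing notes, TopHat2 2.0.9, Bowtie2 2.0.6 and mm9 were used, with no role given, and the counting program and strand are not given in the sources used here. Of the identifiers, 99.6% occur in GENCODE M21, of which 80.5% have the same start and end on GRCm38, so coordinates are given on GRCm38. Each value times its gene length was a whole multiple of 1 step per library (tolerance 0.01), which gave the reads. A single read per kilobase equals 0.0311 to 0.0993 RPKM, depending on the library.

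Groups came from the tissue labels. The 10097 genes with at least 1 RPKM in at least 3 libraries were tested two-sided with limma 3.58.1 (R 4.3.3, variance trend) on log2(RPKM + 1), adjusted by Benjamini-Hochberg. In 20 simulated data sets with 200 changed genes 34.3% of the 2-fold changes and 84.2% of the 4-fold changes were recovered, with 4.86% of calls false. The simulation changed far fewer genes than the 55.2% called here and held no trend with length and no shift of scale. Its rates therefore do not carry over to the calls in these data. The length and GC correction removed natural splines with 5 degrees of freedom from each library. Leaving out a library kept the genes tested. Counting intervals are exact 95% intervals and cover counting error only. The members and lists were chosen with earlier results of these data known. All 10 members are named, and from each list the 2 called genes with the smallest p in each direction, apart from some genes that are not reported here. Figures used matplotlib 3.10.9.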

Additional observations from a re-analysis of the deposited data

How the results depend on the processing

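Of all tested genes, 5577 were called. The count was 3477 when only genes averaging 5 RPKM or more entered, where 5951 genes were tested, and 4747 to 5555 on leaving out a library. With the replicate number as a block it was 5212. No pairing by number was seen (correlations of deviations of -0.125, 0.0255 and -0.0848 for pairs 1 to 3, and no library correlates best with its own number). With so few libraries per group this cannot exclude that libraries share an experiment. The block changed no call of the 5 tested members. The sign turned for Snai1 on rescaling to summed reads (0.20) and after the length and GC correction (0.57, with or without the block), for Vim after the correction (-0.049, with or without the block) and for the ratio of Snai1 to Vim after the correction (0.62). The log2 difference of the ratio of Twist1 to Foxc2, whose groups overlap, also turned from -0.11 to 0.45 after the correction, to 0.11 without stem-labelled replicate 2 and to 0.06 without replicate 1 of the others. The cause was not tested, and the corrected ratios come from log2(RPKM + 1) while the uncorrected ones hold no added 1. Rescaling moved the split of calls from 3014 higher and 2563 lower to 5926 and 1245. The planned edgeR test on recovered reads was not run, so limma-voom is the only setting that models the recovered reads. Of the 272 alternative list counts 57 moved by over 1.5 times. Depth limits Twist2, Zeb1, Prrx1 and the stem-labelled level of Snai3, each on 23 reads or fewer in a group.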

Other observations

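The genes next to Snai3, Foxc2 and Twist1 on their chromosomes were looked up after the values of Snai3 were seen, 2 listed genes on each side. Near Snai3, Mvd, an enzyme of the mevalonate pathway, changed by -2.66 ± 0.24 and Cyba, a subunit of the NADPH oxidase, by -3.07 ± 0.35 (limma adjusted p = 0.000117 and 0.00019), and both were also called lower after rescaling to summed reads (-1.74 and -2.13) and after the length and GC correction (-1.53 and -1.35). Rnf166, whose nearer end lies 5455 bases from Snai3, changed by -1.07 ± 0.28 (limma adjusted p = 0.0103) and did not pass after rescaling (-0.17) or the correction (-0.17). The fourth gene near Snai3, Gm24366, lies 10935 bases away, within the coordinates of Rnf166 and on the same strand. It was not tested and went the other way, at a mean of 1.90 RPKM on 15 stem-labelled reads against 0 reads. Beside Foxc2, the forkhead gene Foxl1, 9045 bases away, rose from a mean of 2.03 to 3.98 RPKM (0.70 ± 0.20, limma adjusted p = 0.0140), and by 1.38 after rescaling. The forkhead gene Foxf1 was below the filter and not tested, at a mean of 0.369 RPKM against 0.201 RPKM (82 stem-labelled reads against 16, at unequal library totals). Mthfsd, between Foxf1 and Foxc2, did not pass (-0.45 ± 0.19) and was called lower after the correction (-1.25). Of the genes looked up beside Twist1 only Twistnb was tested. It lies 518291 bases away and did not pass (-0.23 ± 0.25), and it was called higher after the correction (0.60).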
